A study of Homo sapiens with 12 samples.

Results

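Chaperonins are the barrel-shaped chaperones in which newly made proteins fold, and their genes were followed here in human embryonic kidney HEK293 cells, an established line, after the level of MED12 had been raised or lowered. The genes were taken as the rows of the deposited table that carry a single gene symbol from a list of 10: the 8 subunits of the cytosolic chaperonin (TCP1, CCT2, CCT3, CCT4, CCT5, CCT6A, CCT7 and CCT8) and both subunits of the mitochondrial one (HSPD1 and HSPE1). Of these 10 genes 9 had such a row, with 1 row each, among 22011 rows in all, of which 14432 carry 1 symbol. TCP1 appears only in row 2982381, which also carries the small nucleolar RNA genes SNORA20 and SNORA29, so the values of that row are given by its number and are not assigned to TCP1. Each row summarises the probes of a gene on the array as 1 log2 value, so that 1 unit is a doubling.

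The study measured 12 arrays, 3 biological replicates in each of 4 groups of transiently transfected cells. The first group received full-length MED12 and the next MED12 without its PQL and Opa domains, both fused at the N terminus to nuclear GFP in pcDNA5/TO with an engineered Kozak sequence. The third received a short hairpin RNA (shRNA) against MED12, driven by the H1 promoter in peGFP-C1, and the last, the control, nuclear GFP alone in pcDNA5/TO. MED12 belongs to the kinase module of Mediator, which relays signals from transcription factors to RNA polymerase II. All groups went through lipofection, were harvested after 48 hours and were sorted for living GFP-positive cells, and all RNA was amplified before labelling. The hairpin group differs from GFP in its vector too, and no control hairpin is among the groups used here, so effects of hairpin and vector cannot be told apart.

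The cytosolic chaperonin, called CCT or TRiC, is a double ring in which each ring holds 1 copy of every subunit, and it closes over its client with a built-in lid driven by ATP. Actin and tubulin are its best-known obligate clients. The mitochondrial chaperonin is a ring of HSP60, the product of HSPD1, closed by a separate lid of HSP10, the product of HSPE1, and it folds proteins imported into the matrix. CCT subunits are made in abundance by growing cells. HSPD1 and HSPE1 lie head to head on the genome and are classic heat shock genes, switched on by heat shock factor 1 through repeated short elements.

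The starts of the genes were searched for these elements. The sequences below are given because inducible heat shock genes are set beside the chaperonins later. RefSeq promoter windows (GRCh38.p14, 250 bases before each start and 50 from it on) were found for 9 of the 10 genes, 12 windows in all, the exception being CCT6A. The letters searched were GAANNTTC and TTCNNGAA, each a pair of units of the heat shock element facing opposite ways; each reads the same on both strands, and they overlap where 3 units follow in a row. At least 1 pair was found in 4 of the 12 windows (33.3%), those of CCT2, CCT4, HSPD1 and TCP1, against 13.5% of all 35116 RefSeq windows. A run of 3 units was found in 1 of 12 (8.33%), that of HSPD1, against 0.49% of all windows. Of 24 windows of 16 inducible heat shock genes, 58.3% held a pair and 29.2% a run of 3. Matching letters are a description, not a binding site. Capitals mark the matches in the following windows, each written 5′ to 3′ on the gene's strand, and the HSPE1 window has none.
HSPD1, chr2:197499791-197500090, minus strand: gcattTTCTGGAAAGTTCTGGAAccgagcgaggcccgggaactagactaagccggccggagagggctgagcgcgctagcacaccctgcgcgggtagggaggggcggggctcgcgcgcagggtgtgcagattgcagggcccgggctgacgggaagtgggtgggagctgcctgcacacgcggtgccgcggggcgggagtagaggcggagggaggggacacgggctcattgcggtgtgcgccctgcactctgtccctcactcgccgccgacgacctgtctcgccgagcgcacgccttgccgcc
HSPE1, chr2:197500129-197500428, plus strand: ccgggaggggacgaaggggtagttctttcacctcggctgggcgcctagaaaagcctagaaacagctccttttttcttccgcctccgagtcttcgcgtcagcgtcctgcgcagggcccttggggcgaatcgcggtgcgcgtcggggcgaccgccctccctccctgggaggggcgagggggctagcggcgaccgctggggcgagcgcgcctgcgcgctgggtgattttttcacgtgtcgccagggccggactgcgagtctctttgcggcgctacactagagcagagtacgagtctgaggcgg
CCT4, chr2:61888607-61888906, minus strand: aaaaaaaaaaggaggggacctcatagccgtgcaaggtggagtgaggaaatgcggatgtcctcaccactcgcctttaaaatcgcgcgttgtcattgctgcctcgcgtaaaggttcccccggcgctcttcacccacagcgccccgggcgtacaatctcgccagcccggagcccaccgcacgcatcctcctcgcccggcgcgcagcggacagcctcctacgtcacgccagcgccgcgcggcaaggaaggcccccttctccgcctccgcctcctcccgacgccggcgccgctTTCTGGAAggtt
DNAJB1, chr19:14518348-14518647, minus strand: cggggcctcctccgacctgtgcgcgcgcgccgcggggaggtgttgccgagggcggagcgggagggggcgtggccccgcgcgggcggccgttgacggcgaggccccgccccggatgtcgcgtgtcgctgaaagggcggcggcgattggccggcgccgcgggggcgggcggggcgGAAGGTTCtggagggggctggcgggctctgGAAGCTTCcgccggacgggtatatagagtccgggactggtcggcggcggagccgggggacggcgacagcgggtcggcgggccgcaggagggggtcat

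In the HSPD1 window the match is an unbroken run of 4 units, 18 bases long. It lies 189 bases after another annotated HSPD1 start and 294 bases before the HSPE1 start, just outside the HSPE1 window. Those HSPD1 and HSPE1 starts are 105 bases apart on opposite strands, and their windows share 204 bases. The match of CCT4 begins 39 bases after its start, as counted with the start as base 1. DNAJB1, a heat shock co-chaperone shown for comparison, has a pair of separate matches in the window shown. Another DNAJB1 window holds none, and neither does that of HSPH1, a heat shock gene described below. CCT2, CCT4 and HSPD1 each have a further window without a match.

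The arrays were checked first against their labels. The MED12 row read 10.63, 10.66 and 10.75 in the full-length arrays, 8.62, 8.90 and 9.25 in the PQL/Opa deletion arrays and 3.63, 3.63 and 3.74 in the shRNA arrays, against 4.03, 4.56 and 4.66 in the GFP arrays. MED12 thus lay above GFP in both construct groups (limma, adjusted p = 3.67e-08 and 1.54e-06). Each shRNA array was under the lowest GFP array, and the mean difference of -0.75 did not pass (limma, adjusted p = 0.730). The 8 HEK293 markers ranked between the 49.5th and the 96.8th percentile of all rows, while 4 of 5 leukocyte and red cell markers were measured, at the 8.35th to 51.7th, with 5 of 5 fibroblast markers at the 4.05th to 65.5th and 4 of 4 endothelial markers at the 10.8th to 34.6th. The files give no detection call, so no row can be said to be absent. One array property bears on the chaperonins throughout: the SD of all log2 values ran from 1.34 to 1.60 over the arrays. It was lowest in replicate 1 of shRNA (1.34), GFP (1.40) and the PQL/Opa deletion (1.45), followed by shRNA replicate 3 (1.47).

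No chaperonin row passed an adjusted p of 0.05 in any of the 6 comparisons between groups, or in the F test over all 4 groups. The exception among the alternatives tried was a fit with array weights, dominated by 1 shRNA array. In that fit 5 rows passed in shRNA against GFP (CCT2, CCT4, CCT5, CCT7 and CCT8), where 5702 of all 22011 rows were called. All 7 measured CCT subunits had lower means in the shRNA group than in the GFP group, with a median log2 difference of -0.28, yet of the 9 rows CCT4 alone had an unadjusted p under 0.05. In RNA pooled from sorted cells, fewer cells expressing a gene and less RNA per cell cannot be told apart. Full-length MED12 gave a median difference from GFP of 0.07 over the 9 rows, and the PQL/Opa deletion 0.0078. The share of all rows that passed was as small, at 0.0136% for full-length MED12 against GFP, 0.00454% for the PQL/Opa deletion against GFP, 0.0681% for shRNA against GFP and 0.0863% in the F test. At an unadjusted p under 0.05 the chaperonin rows numbered 0, 0, 1 and 1 of 9 in the same order, where 2.8%, 3.46%, 5.04% and 4.62% of all rows were called. With 3 arrays a group an exact permutation test of 1 row cannot go below p = 0.1, so the model fitted across all rows, limma, gives the tests.

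**Figure D1:**
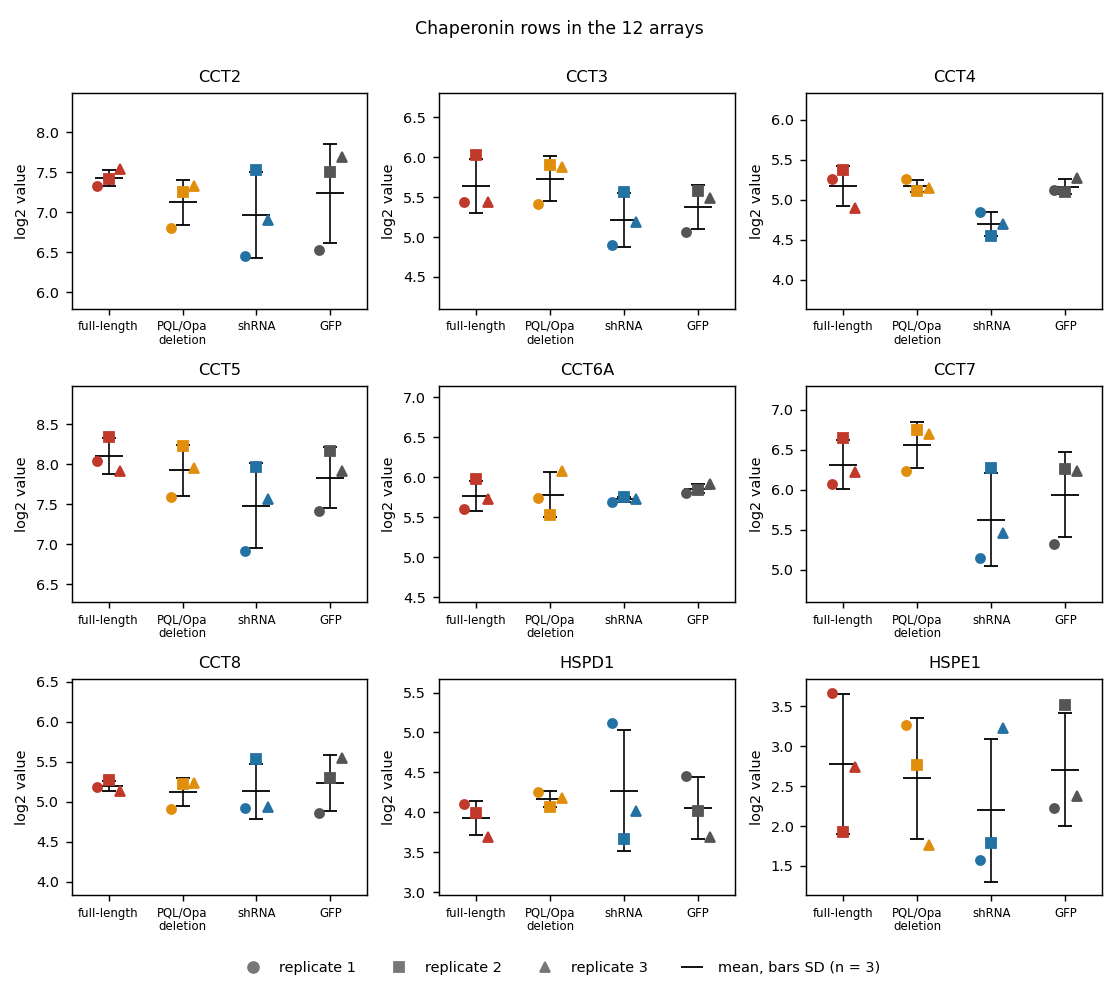
Deposited log2 values of the 9 measured chaperonin rows. Each point is an array, its shape gives the replicate number, the long dash is the group mean and the bars are the SD (n = 3); each panel spans the same log2 range. In CCT4 the shRNA arrays, at 4.55 to 4.85, lie below all other arrays, while in CCT2, CCT5 and CCT7 replicate 1 of shRNA and of GFP are the 2 lowest arrays.

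CCT4 encodes the delta subunit, and it was the row in which the shRNA group stood apart on the deposited log2 scale. It read 5.26, 5.37 and 4.90 in the full-length arrays, 5.26, 5.11 and 5.15 in the PQL/Opa deletion arrays and 4.85, 4.55 and 4.70 in the shRNA arrays, against 5.13, 5.10 and 5.27 in the GFP arrays. On that scale every shRNA array lay below all 9 others, a pattern seen in 1 of the 9 chaperonin rows and in 0.881% of all rows. By rank within each array this was not kept. CCT4 stood at the 88.7th percentile in shRNA replicate 1, above GFP replicates 2 and 3 (87.1 and 87.9). The CCT4 log2 difference between shRNA and GFP was -0.47 (95% interval -0.82 to -0.12, limma, adjusted p = 0.910, unadjusted p = 0.0135), so it did not pass. Between full-length and GFP the difference was 0.0092 (interval -0.34 to 0.36), and between the PQL/Opa deletion and GFP it was 0.0078 (interval -0.34 to 0.36). The CCT4 row had a small spread within groups, at the 10.7th percentile of all rows. With quantile normalization its SD within groups was 0.28, against 0.16 as deposited. Without the 3 narrowest arrays the difference between shRNA and GFP was -0.56, and over all 21 alternatives it ran from -0.56 to -0.36. CCT4 passed in 1 of these alternatives, the fit with array weights (adjusted p = 0.0120), which gave shRNA replicate 3 a weight of 8.77 and called 5702 of all rows.

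CCT7, the eta subunit, had the widest spread of group means among the 7 CCT rows. Its values were 6.07, 6.65 and 6.22 in the full-length arrays, 6.23, 6.75 and 6.70 in the PQL/Opa deletion arrays and 5.15, 6.27 and 5.46 in the shRNA arrays, against 5.32, 6.26 and 6.23 in the GFP arrays. Replicate 1 of shRNA and of GFP were the lowest 2 arrays, and the shRNA and GFP groups overlapped. The log2 difference from GFP was 0.37 with full-length MED12 (interval -0.34 to 1.09), 0.62 with the PQL/Opa deletion (interval -0.10 to 1.33) and -0.31 with the hairpin (interval -1.03 to 0.40), none of which passed.

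CCT3, the gamma subunit, gave a like order of group means with smaller differences. It read 5.43, 6.02 and 5.44 in the full-length arrays, 5.41, 5.90 and 5.88 in the PQL/Opa deletion arrays and 4.89, 5.56 and 5.19 in the shRNA arrays, against 5.06, 5.57 and 5.49 in the GFP arrays. The 4 groups overlapped, and the log2 differences from GFP were 0.26, 0.36 and -0.16 for full-length, PQL/Opa deletion and shRNA, with an SE of 0.24.

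CCT5 and CCT2 encode the epsilon and beta subunits. CCT5 read 8.04, 8.35 and 7.92 in the full-length arrays, 7.59, 8.23 and 7.95 in the PQL/Opa deletion arrays and 6.91, 7.97 and 7.57 in the shRNA arrays, against 7.41, 8.16 and 7.92 in the GFP arrays. CCT2 read 7.33, 7.41 and 7.54 in the full-length arrays, 6.80, 7.25 and 7.33 in the PQL/Opa deletion arrays and 6.45, 7.53 and 6.91 in the shRNA arrays, against 6.53, 7.50 and 7.68 in the GFP arrays. In both rows the full-length arrays lay closest together, while shRNA and GFP were split by replicate, with replicate 1 lowest in each group. The shRNA differences from GFP, -0.35 ± 0.29 for CCT5 and -0.28 ± 0.32 for CCT2 (SE), were about the size of their errors.

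CCT8 and CCT6A, the theta and zeta subunits, differed least between groups. CCT8 read 5.19, 5.27 and 5.14 in the full-length arrays, 4.91, 5.23 and 5.23 in the PQL/Opa deletion arrays and 4.92, 5.53 and 4.94 in the shRNA arrays, against 4.86, 5.30 and 5.55 in the GFP arrays. CCT6A read 5.60, 5.97 and 5.72 in the full-length arrays, 5.74, 5.52 and 6.08 in the PQL/Opa deletion arrays and 5.68, 5.75 and 5.73 in the shRNA arrays, against 5.81, 5.84 and 5.91 in the GFP arrays. All 3 shRNA arrays of CCT6A lay under those of GFP, but the mean difference was -0.13 (interval -0.50 to 0.23), and the arrays of both constructs spread across those of shRNA and GFP. Counting CCT4 and CCT6A, 2 of 9 chaperonin rows had shRNA and GFP arrays that did not overlap, shRNA being lower in both. In that comparison 8.56% of all rows did not overlap in either direction, and 3.85% of all rows did so with shRNA lower. These counts are on the deposited scale, and by rank within each array both CCT4 and CCT6A overlapped. CCT6A stood at the 92.7th percentile in shRNA replicate 3, above GFP replicates 2 and 3 (91.9 and 92.1). For full-length and for the PQL/Opa deletion against GFP the count was 0 of 9, where 7.72% and 7.92% of all rows did not overlap.

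Row 2982381 holds TCP1, the alpha subunit, together with the 2 small nucleolar RNA genes. It read 9.36, 9.63 and 9.14 in the full-length arrays, 9.20, 9.36 and 9.06 in the PQL/Opa deletion arrays and 8.18, 8.61 and 8.33 in the shRNA arrays, against 8.93, 9.25 and 9.17 in the GFP arrays. As in CCT4, every shRNA array lay below all 9 others on the deposited log2 scale, a pattern seen in 0.881% of all rows. Whether it is kept by rank within each array, as it was not in CCT4, was not tested. The difference between shRNA and GFP was -0.75 ± 0.18 (SE, limma, adjusted p = 0.554, unadjusted p = 0.00156). That between shRNA and full-length was -1.0 ± 0.18 (SE, limma, adjusted p = 0.0946, unadjusted p = 0.000152), and neither passed. Which of the 3 genes gave the signal was not tested.

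HSPD1, the subunit of the mitochondrial ring, read high in arrays where most CCT rows read low. It read 4.11, 4.0 and 3.69 in the full-length arrays, 4.26, 4.07 and 4.18 in the PQL/Opa deletion arrays and 5.12, 3.67 and 4.02 in the shRNA arrays, against 4.46, 4.02 and 3.69 in the GFP arrays. The shRNA group held both its highest and its lowest array, replicates 1 and 2, and all groups overlapped. Its log2 difference between shRNA and GFP was 0.21 (interval -0.49 to 0.92). Without the 3 narrowest arrays it was -0.011, so its direction rests on those arrays.

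HSPE1, the lid, had the least even row. It read 3.67, 1.93 and 2.74 in the full-length arrays, 3.26, 2.77 and 1.76 in the PQL/Opa deletion arrays and 1.58, 1.79 and 3.22 in the shRNA arrays, against 2.23, 3.52 and 2.37 in the GFP arrays. The groups overlapped throughout, and the spread within groups stood at the 97.3rd percentile of all rows. Its mean lay at the 19.8th percentile, so the row is not shown to be above background, and its difference between shRNA and GFP, -0.51, had an interval of -1.74 to 0.73. HSPD1 and HSPE1 have many processed copies elsewhere in the genome: RefSeq lists 22 and 28 pseudogenes under their names, against 0 to 5 for each CCT gene. Whether probes of these rows also bind transcripts of such copies was not tested.

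**Figure D2:**
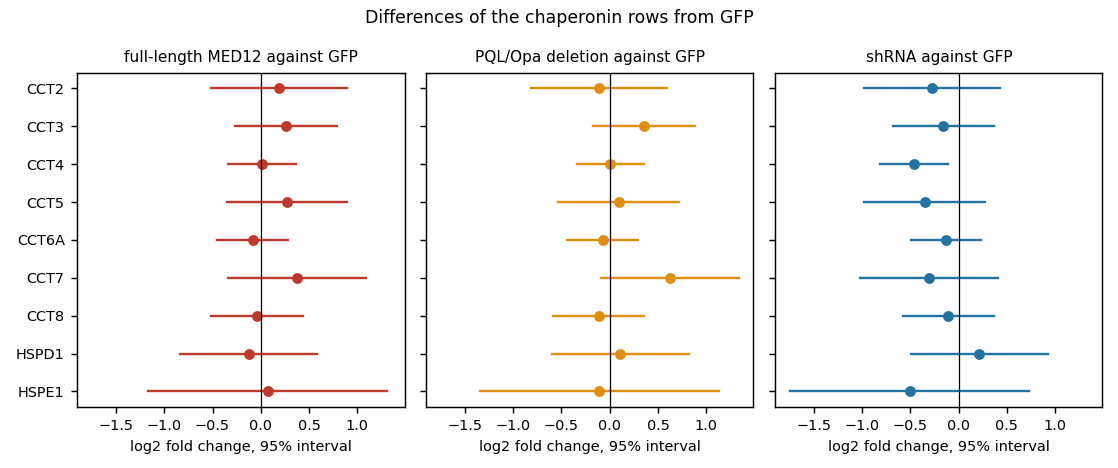
Log2 fold changes of the 9 chaperonin rows (points) with their 95% intervals from limma (lines), for full-length MED12, the PQL/Opa deletion and shRNA, each against GFP. The interval of CCT4 in the shRNA comparison, -0.82 to -0.12, is the only one of the 27 that leaves out 0.

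The CCT subunits shared the lowest place among the 4 group means more than the rest of the order. The shRNA mean was the lowest of the 4 in 7 of 9 chaperonin rows, 6 of them CCT rows, the exceptions being CCT8 and HSPD1. Neighbouring groups in that order had arrays that did not overlap in 1 case, GFP above shRNA in CCT4. The 3 comparisons with GFP share the GFP arrays, so their directions are not independent. Over all rows the median difference between shRNA and GFP was 0.024, with 45.6% of rows below 0, and among rows brighter than the median row it was -0.030. The share of all rows in which the shRNA mean was the lowest of the 4 was not counted, so the 7 of 9 has no such share beside it.

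The direct comparisons between the other groups showed the same rows. Those with the hairpin reuse the same shRNA arrays, so they are no second observation of the lower CCT means. In shRNA against full-length MED12, 7 of 7 CCT rows had lower means with the hairpin, the median over the 9 chaperonin rows being -0.47 (0.04 over all rows). CCT7 differed by -0.69 (interval -1.40 to 0.029) and CCT4 by -0.48 (unadjusted p = 0.0122), and 0 of 9 rows passed where 0.104% of all rows did. At an unadjusted p under 0.05 it was 1 of 9 rows, CCT4, where 7.17% of all rows were called, and CCT4 was also the 1 row with all shRNA arrays below all full-length arrays, which 5.98% of all rows showed. In shRNA against the PQL/Opa deletion the median was -0.40, with CCT7 at -0.93, CCT3 at -0.52 and CCT4 at -0.47. None passed there either (0.0318% of all rows did), and 2 of 9, CCT7 and CCT4, had an unadjusted p under 0.05 (7.16% of all rows). The shRNA arrays lay below all PQL/Opa deletion arrays in 1 of 9 rows, against 5.19% of all rows. In full-length MED12 against the PQL/Opa deletion the median was 0.0014, 0 of 9 rows passed (0.00454% of all rows) and 0 of 9 had an unadjusted p under 0.05 (1.9%).

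In 5 of the 7 CCT rows the values moved together between arrays and with the spread of the array. Pearson's r with the SD of all values of the array, over the 12 arrays, was 0.95 for CCT2, 0.87 for CCT8 and CCT5, 0.84 for CCT7 and 0.80 for CCT3. It was 0.36 for CCT6A, 0.11 for CCT4 and 0.03 for HSPE1, and -0.84 for HSPD1. The mean of the 7 CCT rows, set against the GFP mean, was 0.04, 0.34 and 0.03 in the full-length arrays, -0.10, 0.19 and 0.24 in the PQL/Opa deletion arrays and -0.54, 0.07 and -0.31 in the shRNA arrays, against -0.36, 0.16 and 0.20 in the GFP arrays. The 4 arrays with the narrowest spread gave the 4 lowest values, and shRNA replicate 2, with the widest spread, lay among the GFP arrays. Over all rows the median r with the array SD was -0.24, and over rows brighter than the median row 0.25, with 38.6% of these above 0.5. Whether the array spread accounts for the lower CCT means with the hairpin was not tested. The median of the chaperonin rows between shRNA and GFP, -0.28 over all arrays, was -0.072 without shRNA replicate 1, -0.49 without GFP replicate 1, -0.27 without the 3 narrowest arrays and -0.18 with all arrays scaled to 1 SD. Under that scaling the SD within groups was 0.27 for CCT2 and 0.23 for CCT5, against 0.44 and 0.38 as deposited, and it was also smaller for CCT3, CCT6A, CCT7 and CCT8. It was larger for CCT4 (0.18, against 0.16), HSPD1 (0.47, against 0.44) and HSPE1 (0.82, against 0.81).

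**Figure D3:**
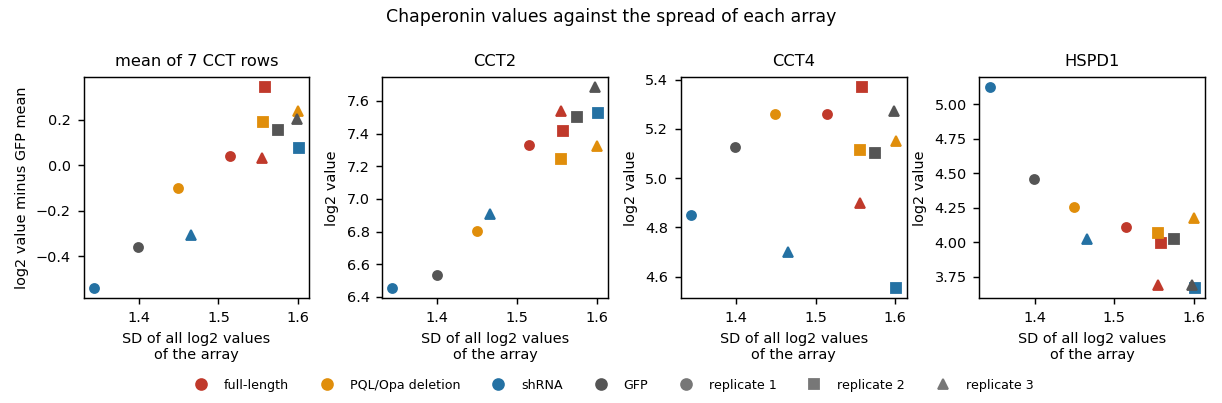
Chaperonin values (vertical axes, log2) against the SD of all log2 values of the same array (horizontal axes), 1 point per array, coloured by group and shaped by replicate. The mean of the 7 CCT rows (r = 0.92) and CCT2 (r = 0.95) lie lower in narrow arrays, and HSPD1 (r = -0.84) lies higher in them. In CCT4 (r = 0.11) the shRNA arrays are lowest on the deposited scale, which ranks within arrays do not keep.

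Between subunits, r over the 12 arrays ran from 0.02 to 0.96 in the 21 pairs of CCT rows, with a median of 0.40. Leaving out CCT4 and CCT6A, the 10 remaining pairs ran from 0.59 to 0.96. Taken as deviations from their group means, all 21 pairs ran from -0.34 to 0.94, with a median of 0.42. The 10 pairs had an r between 0.77 and 0.94 in this form, so their sharing was within groups. They are a selected set, since CCT4 and CCT6A are the CCT rows with the lowest r with the array SD. The 7 pairs of a CCT row with HSPD1 ran from -0.86 to 0.04, and HSPD1 with HSPE1 gave -0.25. Both rows of a pair come from the same arrays and share the spread of each.

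The rows most like the mean of the CCT rows among 7126 rows with 1 symbol brighter than the median row were PRDX6 (r = 0.974 over 12 arrays), a peroxidase, ILF2 (0.974), a double-stranded RNA-binding protein, ATIC (0.971), an enzyme of purine synthesis, NIP7 (0.969), a ribosome assembly factor, and PAIP2 (0.965), a regulator of translation. An r above 0.8 was reached by 13.2% of these rows. Those most like HSPD1 were CUL9 (0.922), a cullin, UBXN11 (0.914), SNX18 (0.913), a sorting nexin, HSPB1 (0.912), a small heat shock protein, and PASK (0.906), a kinase. Here 1.42% of rows exceeded 0.8. The named rows also followed the spread of the arrays. Their r with the array SD ran from 0.86 (ATIC) to 0.94 (NIP7) for those like the CCT mean. For those like HSPD1 it ran from -0.85 (PASK) to -0.75 (HSPB1). Whether these rows share more than the array spread was not tested.

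The proteins that hand clients to CCT were measured beside it. Prefoldin, a hexamer that delivers unfolded actin and tubulin, had all 6 subunits measured, with median log2 differences from GFP of 0.31 with full-length MED12, 0.30 with the PQL/Opa deletion and -0.20 with shRNA. None of the 6 passed in any of the 3. PFDN2 differed by 0.38 with full-length MED12 and by 0.43 with the PQL/Opa deletion (unadjusted p = 0.0294), and PFDN6 by 0.47 with full-length MED12. PFDN4 gave -0.55 with the PQL/Opa deletion and -0.58 with shRNA, and PFDN5 -0.28 with shRNA. The phosducin-like partners of CCT, 3 of 4 measured, had medians of 0.34, 0.0036 and 0.04 in the same order of groups, and none passed. TXNDC9 differed by 0.36, -0.12 and -0.19 and PDCL by 0.34, 0.26 and 0.26.

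Clients of CCT were measured too. Of 19 listed actins, tubulins, WD-repeat proteins and other clients 13 were measured, with medians of 0.13, 0.24 and 0.03 for full-length, PQL/Opa deletion and shRNA against GFP, and 0 passed. The difference was above 0 in 10 of 13 clients with full-length MED12, 11 of 13 with the PQL/Opa deletion and 7 of 13 with shRNA, where 48.6%, 48.4% and 54.4% of all rows were. CDC20, the activator of the anaphase-promoting complex, differed by 0.96 with the PQL/Opa deletion (interval 0.20 to 1.72, limma, adjusted p = 1.00, unadjusted p = 0.0182). GNB1, a G protein beta subunit, gave 0.28 with full-length MED12 and 0.33 with the PQL/Opa deletion, VHL 0.30 with full-length MED12, and ACTG1, a cytoplasmic actin, 0.32 and TUBG1, gamma tubulin, 0.62 with shRNA. Of the tubulin folding cofactors 3 of 6 were measured, with medians of -0.11, -0.13 and -0.10 and none past. TBCA, which takes up beta tubulin, gave -0.56, -0.43 and -0.32, TBCC -0.11 and -0.13 with the constructs, and TBCD -0.10 with shRNA. The 4 relatives of CCT subunits, testis-specific CCT6B and the Bardet-Biedl proteins MKKS, BBS10 and BBS12, had medians of 0.0084, -0.25 and -0.0017, again with none past. BBS12 gave -0.17 and MKKS 0.07 with full-length MED12, BBS10 -0.35 and CCT6B -0.19 with the PQL/Opa deletion, and CCT6B -0.24 and MKKS 0.13 with shRNA.

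The mitochondrial HSP70 system and matrix proteases, which work beside HSP60, likewise held no row past the threshold, with 9 of 12 measured and medians of 0.08, -0.08 and -0.20. GRPEL1, a nucleotide exchange factor of mitochondrial HSP70, gave 0.20 with full-length MED12 and 0.35 with the PQL/Opa deletion, and its paralogue GRPEL2 gave -0.58 with shRNA (interval -0.98 to -0.17, limma, adjusted p = 0.862, unadjusted p = 0.00999). CLPX, the unfoldase of the matrix protease ClpXP, differed by 0.26 with full-length MED12, TIMM44, part of the import motor, by 0.18 with the PQL/Opa deletion, and HTRA2, a protease of the intermembrane space, by -0.52 with shRNA.

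The inducible heat shock genes, which share heat shock factor 1 with HSPD1 and HSPE1 in textbook accounts, held the largest single difference from GFP among these lists. Of 17 listed 13 were measured, while HSPA1A, HSPA1B, HSPA6 and HSP90AB1 had no row with that single symbol. The list also holds HSF1, the gene of heat shock factor 1. The medians were 0.76 with full-length MED12, 0.22 with the PQL/Opa deletion and -0.36 with shRNA, and 0 passed in any comparison with GFP. With full-length MED12 11 of 13 were above 0, where 48.6% of all rows were, and HSPB1 (-0.23) and HSF1 (-0.19) were below. At an unadjusted p under 0.05, 7 were higher with full-length MED12, 2 were higher and 1 lower with the PQL/Opa deletion, and 5 were lower with shRNA, where 2.8%, 3.46% and 5.04% of all rows were called in either direction. DNAJB1 read 5.59, 5.86 and 6.35 in the full-length arrays, 3.90, 4.52 and 4.63 in the PQL/Opa deletion arrays and 2.64, 3.65 and 2.77 in the shRNA arrays, against 3.41, 3.88 and 3.86 in the GFP arrays. All full-length arrays lay above all others, and its difference between full-length and GFP was 2.22 ± 0.30 (SE, limma, adjusted p = 0.0664). HSPA1L, an HSP70 relative, gave 1.16 with full-length MED12 and -0.71 with shRNA. HSPA8, the constitutive HSP70, gave 0.76 with full-length MED12, 0.62 with the PQL/Opa deletion and -0.012 with shRNA. HSP90AA1 gave 0.066, -0.51 and -0.49 in the same order.

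HSPH1, an HSP110 exchange factor, read 7.56, 7.39 and 7.49 in the full-length arrays, 6.34, 6.77 and 6.85 in the PQL/Opa deletion arrays and 4.80, 5.96 and 5.32 in the shRNA arrays, against 5.86, 6.36 and 6.34 in the GFP arrays. Its difference between shRNA and GFP was -0.82. In shRNA against full-length MED12, 4 of the 13 heat shock genes passed, all lower with the hairpin, where 0 of 9 chaperonin rows and 0.104% of all rows passed. DNAJB1 differed by -2.91 (limma, adjusted p = 0.0040), HSPA1L by -1.87 (adjusted p = 0.0049), HSPH1 by -2.12 (adjusted p = 0.0096) and HSPA4L, an HSP110 relative, by -1.49 (adjusted p = 0.0165). All 3 shRNA arrays lay below all full-length arrays in each of the 4. Leaving out 1 array ended the call for HSPA4L (each full-length array, shRNA replicate 1 or 3, adjusted p = 0.0511 to 0.129) and for HSPH1 (each full-length array or shRNA replicate 3, adjusted p = 0.0559 to 0.0762). Beside the differences from GFP, HSPD1 and HSPE1 differed between full-length and GFP by -0.12 (interval -0.83 to 0.58) and 0.07 (interval -1.17 to 1.31). In the 7 CCT rows the median between full-length and GFP was 0.19, and the highest upper bound was 1.09, that of CCT7.

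**Figure D4:**
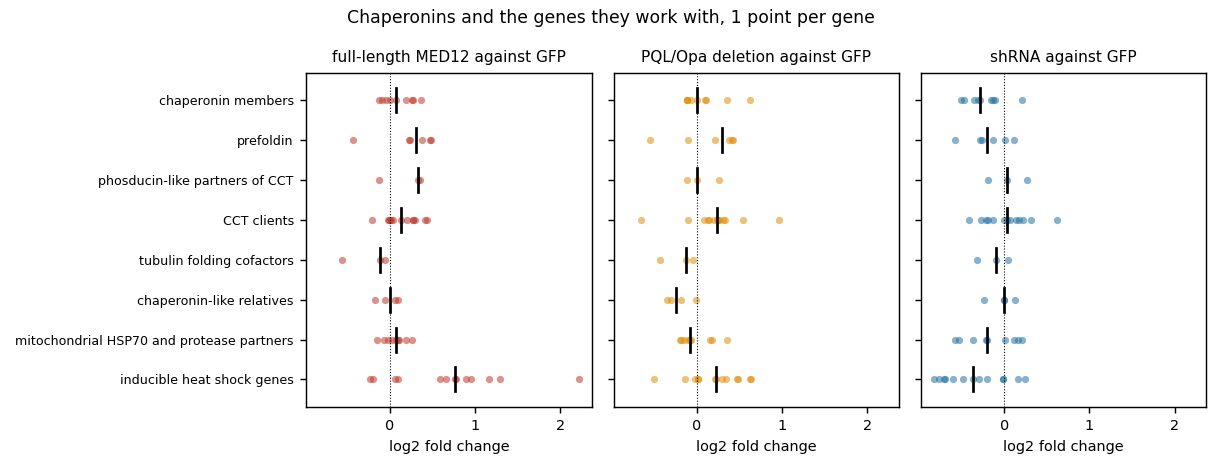
Log2 fold changes against GFP of the chaperonin rows (top row) and of the genes they work with, for full-length MED12, the PQL/Opa deletion and shRNA; each point is a gene and the black bar is the list's median. With full-length MED12 the inducible heat shock genes reach 2.22 (DNAJB1), with a median of 0.76, while the chaperonin rows lie between -0.12 and 0.37.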

How the data were processed

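The deposited log2 values, 1 per row and array, were made by the authors with Partek and RMA on genome build hg18, per the submitters' processing notes (their versions, the probe set level and any filter: not given in the sources used here). They were used as they stand, without offset or filter, and 0 columns of values were left out. With limma 3.58.1 in R 4.3.3, a model of 4 group means was fitted to all 12 arrays and all 22011 rows (eBayes, two-sided, 8 residual and 3.52 prior degrees of freedom), with p-values adjusted after Benjamini-Hochberg across the whole table and called under 0.05. The script was tested on simulated data. With 3 arrays a group precision is limited: the median SE of a log2 difference was 0.23. The labels call the replicates biological without explaining their numbers. Deviations of same-numbered arrays correlated in all 3 pairs for full-length with GFP (r = 0.10 to 0.23). They also did for the PQL/Opa deletion with GFP (0.15 to 0.47). A threshold of 0.1 would pair both comparisons. Each other comparison had at least 1 pair under 0.1 and would not be paired by this rule. Single pairs there were still high, with replicate 1 at 0.46 for shRNA with GFP and 0.45 for shRNA with the PQL/Opa deletion. The p-values and intervals given above are unpaired in every comparison, and the replicate number entered as a block only in an alternative fit.

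The members, lists and tests were chosen with earlier results of these data known. Named are all members, MED12, of each other list every row past the threshold and the 2 smallest p in each comparison with GFP, and the 5 rows most like the CCT mean and HSPD1. Gene symbols came from the platform's annotation, pseudogene names and promoter windows from RefSeq (GRCh38.p14).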

Additional observations from a re-analysis of the deposited data

How the results depend on the processing

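Alternatives were other normalizations, a fit of the groups compared only, leaving out each array or the 3 narrowest ones, another variance model, array weights, a filter and the replicate number as a block. In every one of these fits except that with array weights 0 chaperonin rows passed, and the replicate block left each count at 0. With array weights 5 rows passed in shRNA against GFP, 2 in shRNA against full-length, 4 in shRNA against the PQL/Opa deletion and 5 in the F test; that fit rests on shRNA replicate 3 and called 5702, 3383, 6157 and 6360 of all rows. HSPE1 lies below the filter, and using all member rows in place of 1 per gene was not run, since each gene has 1 row. The same alternatives, added after seeing the data, were run for the 4 heat shock genes that passed in shRNA against full-length: DNAJB1 and HSPA1L passed in 20 of 21, HSPH1 in 16 and HSPA4L in 15, and none of the 4 in the fit of both groups only (adjusted p = 0.083 to 0.174).

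Of 1128 refits of all 54 differences of single chaperonin rows 77 turned sign, 39 of them among the 32 differences given or plotted above; the cause was not tested. With quantile normalization CCT4 was -0.094 for full-length and -0.048 for the PQL/Opa deletion against GFP, and CCT6A 0.0011 for shRNA. With arrays scaled to 1 SD CCT4 was -0.0084 and -0.0089 for these constructs. Without the 3 narrowest arrays full-length against GFP gave -0.16 for CCT2, -0.010 for CCT4, 0.077 for HSPD1 and -0.17 for HSPE1, the PQL/Opa deletion gave -0.056 for CCT4 and shRNA -0.011 for HSPD1. With array weights full-length against GFP gave -0.034 for CCT2 and -0.44 for HSPE1.

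Leaving out 1 array at a time, the full-length difference from GFP ran from -0.16 to 0.41 for CCT2, -0.087 to 0.15 for CCT4, -0.23 to 0.12 for CCT8, -0.31 to 0.077 for HSPD1 and -0.37 to 0.50 for HSPE1, with a median over the chaperonin rows of -0.010 to 0.32. For the PQL/Opa deletion it ran from -0.47 to 0.11 for CCT2, -0.036 to 0.061 for CCT4, -0.12 to 0.26 for CCT5, -0.22 to 0.055 for CCT6A, -0.30 to 0.041 for CCT8, -0.072 to 0.31 for HSPD1 and -0.44 to 0.31 for HSPE1. For shRNA it ran from -0.33 to 0.0030 for CCT3, -0.31 to 0.048 for CCT8 and -0.21 to 0.51 for HSPD1. The median of full-length against the PQL/Opa deletion ran from -0.095 to 0.11, and that of shRNA against GFP from -0.49 without GFP replicate 1 to -0.072 without shRNA replicate 1.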
